A study of Mus musculus with 4 samples.

Results

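The genes described here are 10 core pluripotency genes, known to be active in mouse embryonic stem (ES) cells: Pou5f1 (also called Oct4), Sox2, Nanog, Klf4, Esrrb, Tfcp2l1, Lin28a, Sall4, Prdm14 and Tdgf1. They were taken by name, and for each every enriched region of histone H3 trimethylated at lysine 36 (H3K36me3) or lysine 9 (H3K9me3) that lay inside the gene or within 5 kb of it was taken. The genes are 10 of 22367 protein-coding genes, and 75 of the 64095 regions in both lists met this rule. All 10 genes held H3K36me3, a mark present in 34% of protein-coding genes, and it covered 41.6% of their joint length. H3K9me3 was found in 3 of the 10, Esrrb, Tfcp2l1 and Prdm14, a share near the 40.2% of protein-coding genes that held it.

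The study asked how the G34R substitution in the histone variant H3.3, found in paediatric glioma, changes these marks. Chromatin immunoprecipitation with sequencing was carried out for each mark in wild-type (WT) and G34R ES cells of strain 129S1/SvImJ, cultured with serum and leukemia inhibitory factor, which gave 4 libraries, 1 per mark and genotype. WT cells carried unaltered H3f3a and H3f3b, the genes that encode H3.3. In G34R cells, 1 targeted H3f3a allele expressed the mutant from its own promoter after Cre recombinase had removed a wild-type cassette, and H3f3b was left unaltered. The clone that was sequenced is not given in the sources used here. Each mark has 1 list of positions, which holds regions enriched in WT or in G34R cells, with no height or read number for either. The genotypes therefore cannot be told apart in any value below, the read depth behind a region is unknown, and no error or test over replicates can be given.

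H3K36me3 is laid down behind elongating RNA polymerase II by Setd2 and is known as a mark of the bodies of transcribed genes, denser toward their ends. H3K9me3 is known as a mark of silent chromatin, such as repeats and imprinted genes, and in ES cells much of it is deposited by Setdb1. Pou5f1, Sox2 and Nanog are transcription factors at the centre of the ES cell network, and they bind the regulatory DNA of most of the other genes named here.

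Sequence from within the regions is shown for the 3 central factors and for the places where H3K9me3 entered a gene of the list, each a stretch of 200 bases read 5′ to 3′ on the strand of the gene from assembly NCBIM37 (mm9). In the first 3, taken from the part of each H3K36me3 region with the most coding bases, capitals mark coding sequence of the transcript with the longest coding sequence. In the other 4, capitals mark CpG dinucleotides. The Pou5f1 stretch lies at chr17:35647201-35647400, the Sox2 stretch at chr3:34549601-34549800 and the Nanog stretch at chr6:122661601-122661800. For Esrrb, the first stretch, chr12:87762394-87762593, ends at the base before an annotated inner transcript start and lies in H3K9me3, and the second, chr12:87794201-87794400, lies in both lists. The Tfcp2l1 stretch, chr1:120537201-120537400, lies in both lists as well. The Prdm14 stretch, chr1:13114601-13114800 on the minus strand, lies in H3K9me3 only.
Pou5f1, H3K36me3: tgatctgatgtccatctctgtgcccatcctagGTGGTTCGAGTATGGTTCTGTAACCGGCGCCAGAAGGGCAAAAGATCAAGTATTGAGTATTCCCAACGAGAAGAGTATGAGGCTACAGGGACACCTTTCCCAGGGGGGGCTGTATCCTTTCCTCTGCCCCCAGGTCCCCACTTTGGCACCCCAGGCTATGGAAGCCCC
Sox2, H3K36me3: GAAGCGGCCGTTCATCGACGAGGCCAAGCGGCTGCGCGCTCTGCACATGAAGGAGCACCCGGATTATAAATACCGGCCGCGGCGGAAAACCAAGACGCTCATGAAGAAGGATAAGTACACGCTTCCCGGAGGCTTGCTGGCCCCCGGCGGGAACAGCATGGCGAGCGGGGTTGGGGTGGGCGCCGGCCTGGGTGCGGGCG
Nanog, H3K36me3: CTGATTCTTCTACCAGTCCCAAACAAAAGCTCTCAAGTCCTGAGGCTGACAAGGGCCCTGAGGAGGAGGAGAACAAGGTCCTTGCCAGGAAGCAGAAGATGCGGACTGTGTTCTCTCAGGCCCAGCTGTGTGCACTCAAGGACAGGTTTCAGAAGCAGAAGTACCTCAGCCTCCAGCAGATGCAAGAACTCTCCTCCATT
Esrrb, H3K9me3: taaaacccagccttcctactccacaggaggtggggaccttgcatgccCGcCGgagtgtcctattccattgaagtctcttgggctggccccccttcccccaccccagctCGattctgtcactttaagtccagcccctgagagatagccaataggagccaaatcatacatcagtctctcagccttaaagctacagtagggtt
Esrrb, both marks: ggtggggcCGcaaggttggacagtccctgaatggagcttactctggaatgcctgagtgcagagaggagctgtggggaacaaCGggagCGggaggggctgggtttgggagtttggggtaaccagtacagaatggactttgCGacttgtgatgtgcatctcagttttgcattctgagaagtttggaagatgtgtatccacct
Tfcp2l1, both marks: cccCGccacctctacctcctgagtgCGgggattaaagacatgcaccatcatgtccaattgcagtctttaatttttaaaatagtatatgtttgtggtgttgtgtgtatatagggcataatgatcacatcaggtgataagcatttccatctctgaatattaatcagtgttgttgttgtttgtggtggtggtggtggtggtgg
Prdm14, H3K9me3: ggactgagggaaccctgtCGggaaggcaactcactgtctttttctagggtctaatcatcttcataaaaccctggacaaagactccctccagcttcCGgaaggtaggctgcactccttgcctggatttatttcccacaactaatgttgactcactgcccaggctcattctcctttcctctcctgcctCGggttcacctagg
The Sox2 stretch held 23 CpG dinucleotides, the highest number of the 7, and the Nanog stretch held 1. The 4 stretches in H3K9me3 held between 2 and 4.

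Every gene of the list held at least 1 bp of H3K36me3, 10 of 10, against 34% of all protein-coding genes. H3K9me3 was present in 3 of 10, against 40.2%. H3K36me3 without any H3K9me3 in the gene was the state of 7 of 10, against 22%. Both marks were present in 3 of 10 genes, against 12.1%, and on the same bases in 2 of 10, Esrrb and Tfcp2l1, against 7.14%. These percentages are the background over 22367 genes, whose median length of 15427 bp was above the median of 10426 bp for the 10 genes. All 10 genes held H3K36me3, so genes with that mark are the closer background for the combinations. Of 7609 such protein-coding genes, 4911 held no H3K9me3, 2698 held both marks and 1596 held both on the same bases. These are shares close to those of the 10 genes.

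The 49 H3K36me3 regions inside the genes summed to 121764 bp of 292792 bp, or 41.6%, while the same list covered 5.71% of the length of all protein-coding genes. The covered share of a gene ranged from 7.74% in Lin28a to 72.6% in Sox2, with a median of 43.2%. Among protein-coding genes with any H3K36me3 the median was 27.6% and the quartiles were 8.52% and 54.3%, so that 9 of the 10 genes were above that median and Lin28a was below the lower quartile. Covered shares of marked genes were lower in the length classes of the longest members, with medians of 14.7% around Tfcp2l1 and 3.93% around Esrrb, than in those of genes such as Sox2 (44.9%) and Nanog (44.7%). Against marked genes within a factor of 2 of its own length a gene was above the median in 6 of 10 cases. Pou5f1, Nanog, Prdm14 and Lin28a were below it, with 42.4%, 44.6%, 46.7% and 14.3% of such genes covered to a smaller share, while Klf4, Tdgf1, Sall4, Sox2, Esrrb and Tfcp2l1 ranged from 58.3% to 93.0%. H3K9me3 covered 31800 bp of the 10 genes, or 10.9%, against 3.38% of all protein-coding genes, and 29400 bp of it lay in Esrrb alone. Region widths inside the genes ran from 600 bp, the narrowest width in either list, to 17000 bp for H3K36me3 and 7200 bp for H3K9me3.

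**Figure D1:**
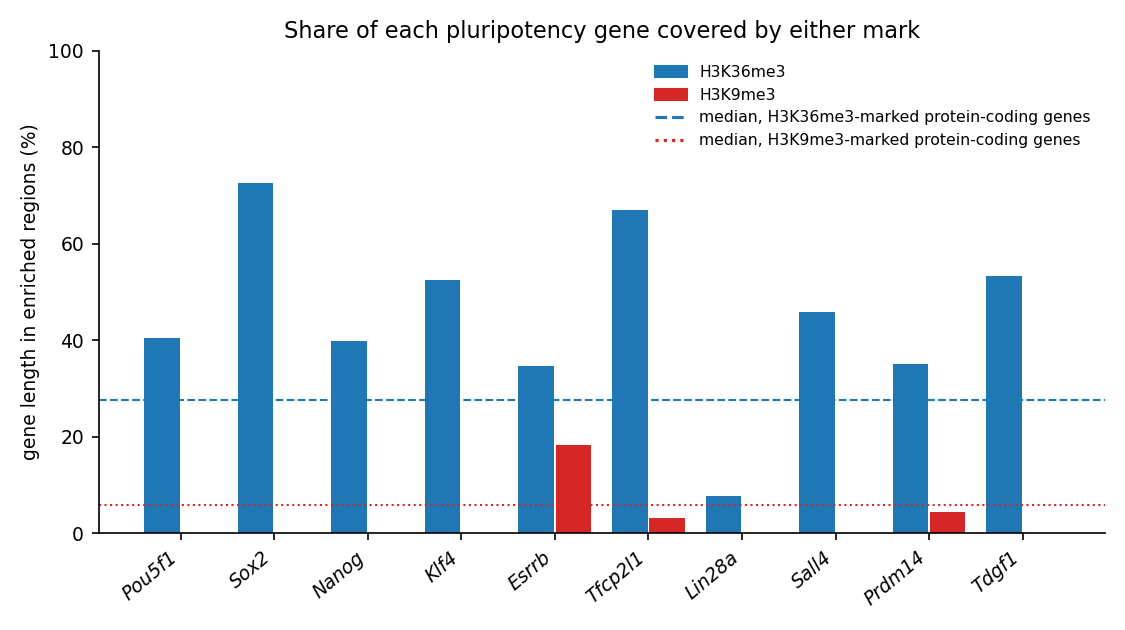
Percentage of the length of each of the 10 genes that lay in H3K36me3 regions (blue bars) and H3K9me3 regions (red bars), with the medians over protein-coding genes that held the mark as lines. The blue bars run from 7.74% (Lin28a) to 72.6% (Sox2), and red bars stand at 3 genes, the highest at 18.3% (Esrrb).

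Pou5f1, the POU-domain transcription factor whose loss ends pluripotency, spans chr17:35642982-35647721 on the plus strand (4740 bp, 5 exons). Its single H3K36me3 region, chr17:35645801-35647800, began 2819 bp from the gene start, in the first intron, and passed the gene end by 79 bp. It took in exons 2 to 5 and left exon 1 bare, and covered 40.5% of the gene. The median for marked genes within a factor of 2 of its length was 45.8%. No H3K9me3 region lay in Pou5f1 or within 5 kb of it.

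Sox2, the HMG-box partner of Oct4, is a gene of 1 exon at chr3:34548927-34551383 on the plus strand (2457 bp). Its single H3K36me3 region, chr3:34549601-34551400, started 674 bp from the gene start, the shortest distance in base pairs of the 10 genes, and ran past the gene end. It covered 72.5% of the coding sequence and 72.6% of the untranslated sequence. Among marked genes within a factor of 2 of the length of Sox2, 85.4% were covered to a smaller share. Sox2 lies wholly inside Sox2ot, a long noncoding RNA gene, and regions carry no strand, so the mark cannot be assigned to either gene.

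Nanog, the homeodomain factor of the ground state, spans chr6:122657507-122664651 on the plus strand (7145 bp, 4 exons). Its 3 H3K36me3 regions, chr6:122661401-122662000, chr6:122662201-122663600 and chr6:122663801-122664800, began 3894 bp from the gene start and reached past its end. They were separated by single bins of 200 bp, the unit in which enrichment was scored. Together they covered 83.5% of the coding sequence, 24.6% of the introns and 39.9% of the gene.

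Klf4, a zinc-finger factor of the Krüppel-like family, spans chr4:55540013-55545347 on the minus strand (5335 bp, 5 exons). A region of 2200 bp, chr4:55542001-55544200, took in exons 3 and 4, and a region of 600 bp, chr4:55540801-55541400, held 228 bases of intron 4 and, in exon 5, 173 coding and 199 untranslated bases. Together they covered 91.3% of the coding sequence but 12.4% of the untranslated sequence. Klf4 was the 1 gene of the 10 with more H3K36me3 in the first 50% of its length (1520 bp) than in the second (1280 bp), and its last region stopped 788 bp before the gene end, the longest such distance of the 10.

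Sall4, a zinc-finger factor that binds together with Oct4 and Nanog, spans chr2:168573832-168593443 on the minus strand (19612 bp, 4 exons). A single H3K36me3 region of 9000 bp, chr2:168574401-168583400, ran unbroken from intron 1 through exons 2 to 4. It covered 95.6% of the coding sequence, the highest share of the 10 genes, and 45.9% of the gene.

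Tdgf1 (Cripto), a membrane-anchored co-receptor of Nodal signalling, spans chr9:110842114-110848662 on the minus strand (6549 bp, 6 exons). Its 3 regions covered 53.2% of the gene and 85.8% of the coding sequence. They began 2462 bp from the gene start, before exon 3, and the last ran past the gene end.

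Lin28a, the RNA-binding protein that blocks maturation of let-7 microRNAs, spans chr4:133559245-133574756 on the minus strand (15512 bp, 4 exons) and was the exception. It held 2 regions of 600 bp, chr4:133560401-133561000 and chr4:133559601-133560200, both wholly within the untranslated sequence of exon 4. No coding or intronic base was covered, and the first region began 13756 bp from the gene start, at 88.7% of the gene length. Of marked genes within a factor of 2 of its length, 14.3% were covered to a smaller share. Both regions have the narrowest width in the list, and with regions of at least 1 kb alone Lin28a held none, which left 9 of 10 genes with H3K36me3, against 28.4% of protein-coding genes at that width.

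**Figure D2:**
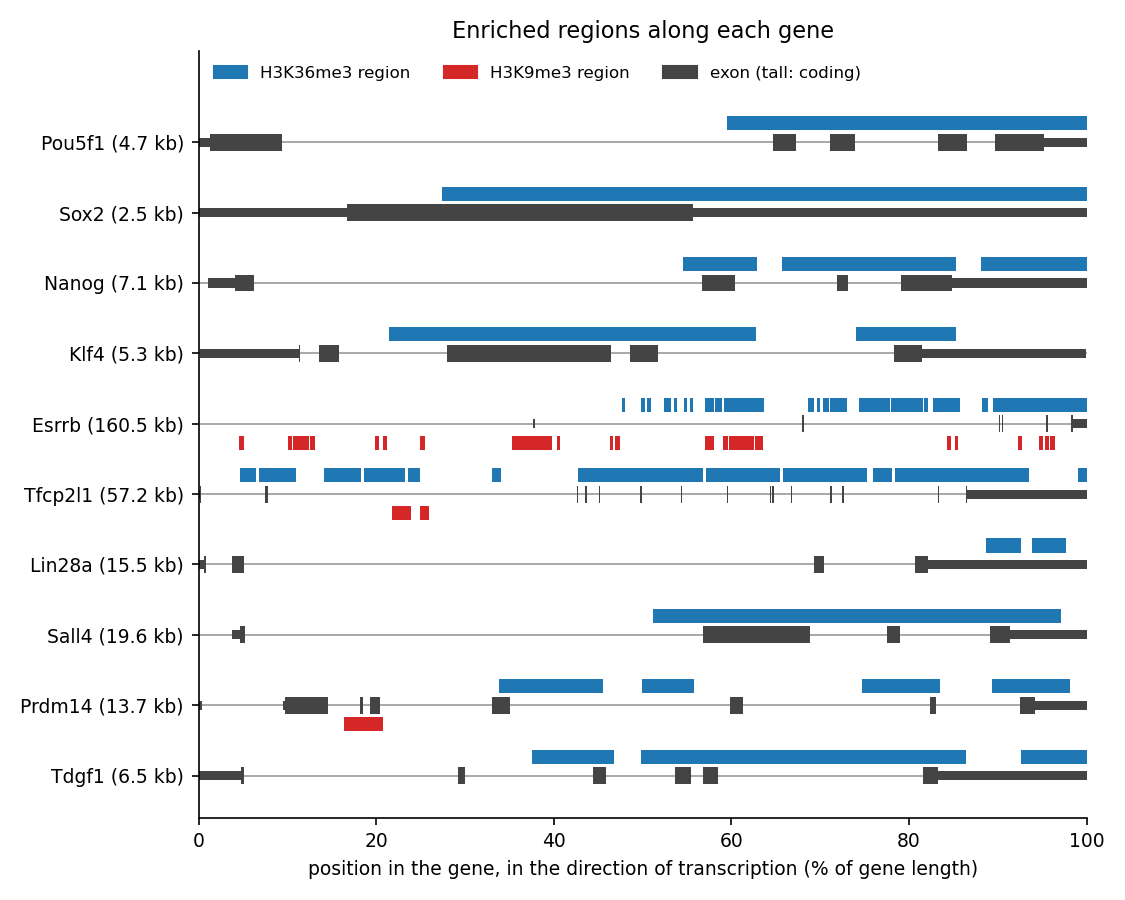
Enriched regions of H3K36me3 (blue, above each line) and H3K9me3 (red, below) along the 10 genes, each scaled to its own length, with exons of the transcript with the longest coding sequence in grey. The blue regions crowd toward the right-hand end in 9 of the 10 genes and red regions lie in 3, Esrrb, Tfcp2l1 and Prdm14.

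H3K36me3 covered the outermost transcript start in 0 of the 10 genes, near the 1.51% of all protein-coding genes with the mark. Annotated inner starts lay inside an H3K36me3 region in 2 of 10 genes, against 29% of marked genes, at position 35646330 in Pou5f1 and 168581443 in Sall4. Tfcp2l1, Lin28a, Prdm14 and Tdgf1 have 1 annotated transcript each and so no inner start to be covered. The distance from the outermost start to the first H3K36me3 base ran from 674 bp in Sox2 to 76534 bp in Esrrb. As a share of the gene it ran from 4.68% in Tfcp2l1 to 88.7% in Lin28a, with a median of 42.6% (32.1% for all marked protein-coding genes). At the other end, H3K36me3 came within 1 kb of the gene end in 10 of 10 genes, against 54.9% of marked protein-coding genes. The median distance from the last H3K36me3 base to the gene end was 0 bp in the 10 genes and 698 bp in marked protein-coding genes. In 9 of 10 genes most H3K36me3 lay in the second 50% of the gene, as it did in 80.8% of marked genes. The marked genes in these comparisons were not matched for length, and 1 kb is a larger part of a short gene.

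With each gene cut into 10 equal stretches, the mean covered share over the 10 genes was 4.97% in stretch 1 and 6.50% in stretch 2, where Tfcp2l1 in both cases was the sole gene with the mark. It was 65.4% in stretch 6, in which 9 genes were covered, 78.2% in stretch 8 and 73.4% in stretch 10. The mean over the 7511 marked protein-coding genes of at least 2 kb, of 7609 marked genes in all, was 4.27% in stretch 1, 39.4% in stretch 6 and 44.1% in stretch 10. The 10 genes were thus lower than the mean of marked genes in stretches 2 to 4 and higher from stretch 5 on. These marked genes were not matched for length. Against marked genes within a factor of 2 of its length, a gene was above the median covered share in 6 of 10 cases.

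**Figure D3:**
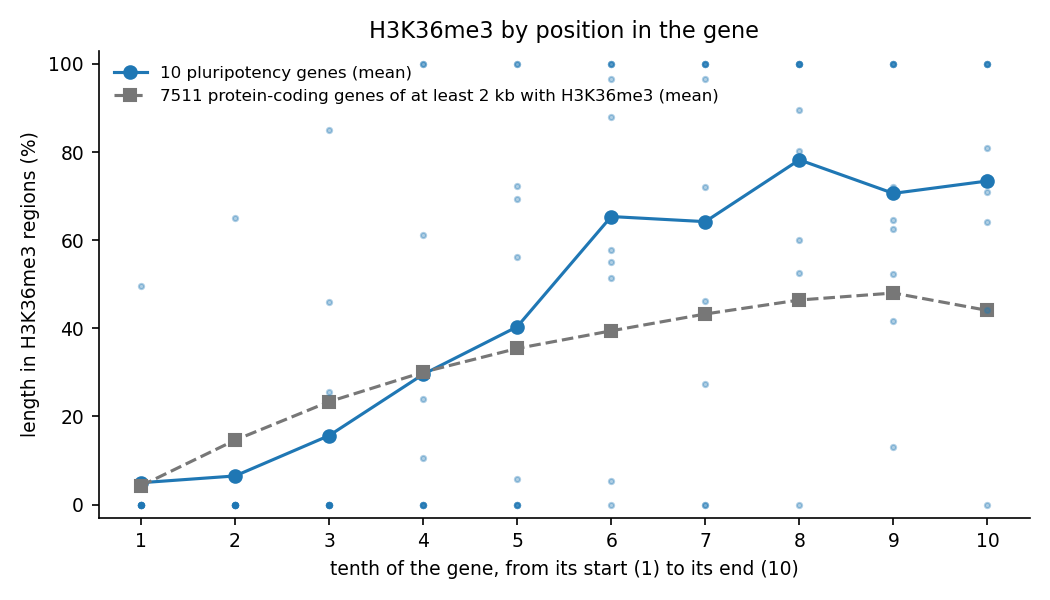
Mean percentage of each of 10 equal stretches of the gene that lay in H3K36me3 regions, for the 10 pluripotency genes (blue line, with 1 small point per gene) and for 7511 protein-coding genes of at least 2 kb with the mark (grey dashed line). The blue line rises from 4.97% in stretch 1 to 78.2% in stretch 8, and the grey line from 4.27% to 46.4%.

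By gene part, over all annotated transcripts of the 10 genes, H3K36me3 covered 73.2% of the coding sequence, 57.3% of the untranslated sequence and 38.4% of the introns. In all protein-coding genes with the mark, not matched for length, these shares were 52.0%, 28.7% and 15.1%. The shares pool bases over genes, so that the introns of Esrrb (154465 bp) and Tfcp2l1 (47954 bp) weigh most in the intron value. H3K36me3 lay on coding sequence in 9 of 10 genes, all but Lin28a, near the 90.8% of marked genes. Among the 9, the covered share of the coding sequence was lowest in Prdm14, at 28.9%. Since 86.7% of the length of the genes is intron, 80.1% of the H3K36me3 bases were nonetheless intronic. Of the H3K9me3 bases 94.4% were intronic, and 4.10% of the coding sequence was covered, in Esrrb and Prdm14.

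Esrrb, an orphan nuclear receptor that stands in for Nanog in ES cell self-renewal, spans chr12:87702067-87862578 on the plus strand and is the longest of the 10 genes (160512 bp). It held 20 H3K36me3 regions with 55578 bp, 34.6% of the gene, and 21 H3K9me3 regions with 29400 bp, 18.3% of the gene. Both shares were high for a gene of this length. Of H3K36me3-marked genes within a factor of 2 of its length 92.5% were covered to a smaller share, with a median of 3.93%, and 98.5% of all genes of that length class had a smaller H3K9me3 share. In base pairs, 87 of the 22367 genes held more H3K9me3.

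The marks divided Esrrb in order. From the outer transcript start at position 87702067, 11 H3K9me3 regions with 17000 bp followed each other before the first H3K36me3 region, chr12:87778601-87779200, which lay 400 bp beyond the last of them. Annotated inner transcript starts lie at positions 87762594, shared by 3 transcripts, and 87762833, and both fell inside the widest H3K9me3 region of the gene, chr12:87758801-87766000 (7200 bp). The remaining inner starts, 87811067 of a protein-coding transcript and 87845359 of a processed transcript, lay outside the regions of both lists. The widest region took in exon 1 of the transcript with the longest coding sequence, and held 2.78 CpG per 100 bp, above the 1.33 of the whole gene and the 2.13 of the H3K9me3 list. Before position 87762594 the gene held 11593 bp of H3K9me3 and no H3K36me3, and the first H3K36me3 began 16007 bp after it. In all, 922 bp of H3K36me3 lay in the first 50% of the gene and 54656 bp in the second, whereas H3K9me3 was split into 17000 bp and 12400 bp. Counted from the outer start, H3K36me3 began at 47.7% of the gene. With the span of the transcript with the longest coding sequence, which starts at the inner position, H3K36me3 covered 55.6% of Esrrb.

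From the first H3K36me3 region on, the remaining 10 H3K9me3 regions of Esrrb all shared bases with H3K36me3, and 9 of them lay wholly inside an H3K36me3 region. They formed 10 shared stretches of 12200 bp in all, which is 22.0% of the H3K36me3 and 41.5% of the H3K9me3 in the gene. Over protein-coding genes with both marks the shared part was 13.6% of the H3K36me3 and 29.2% of the H3K9me3. The first 4 stretches, between 91.5 and 101.9 kb from the gene start, summed to 8200 bp in the intron between exons 1 and 2 of the transcript with the longest coding sequence. A further 1200 bp lay between 135.3 and 137.3 kb and 2800 bp between 148.1 and 154.7 kb, near the gene end. The region chr12:87793601-87795200 had identical ends in both lists, 1 of 107 such regions in the genome. The region chr12:87855001-87855800 took in exon 6 and held 284 coding bases under both marks. Of 1596 protein-coding genes with bases in both lists, 31 had more of them than Esrrb.

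Tfcp2l1, a CP2-family factor downstream of leukemia inhibitory factor, spans chr1:120524522-120581744 on the plus strand (57223 bp). Its 12 H3K36me3 regions covered 38344 bp, 67.0% of the gene, while the median for marked genes within a factor of 2 of its length was 14.7%, and 93.0% of those were covered to a smaller share. The mark started 2679 bp from the gene start, at 4.68% of the gene, the earliest in relative terms of the 10 genes, and took in 90.3% of the coding sequence. H3K9me3 was confined to 2 regions of intron 2, chr1:120537001-120538200 and chr1:120538801-120539400, with 1800 bp or 3.15% of the gene. Of these, 1000 bp, or 55.6%, were shared with H3K36me3, in stretches of 800 bp and 200 bp. The 1800 bp of H3K9me3 held 0.44 CpG per 100 bp, below the 2.13 of the H3K9me3 list, in a gene that held 0.82 as a whole.

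Prdm14, a PR-domain zinc-finger protein that restrains DNA methylation and FGF signalling in ES cells, spans chr1:13103538-13117244 on the minus strand (13707 bp, 8 exons). The 4 H3K36me3 regions covered 4800 bp, 35.0% of the gene, and began 4644 bp from the gene start. A single H3K9me3 region of 600 bp, chr1:13114401-13115000, lay before all of them, 2244 bp from the gene start, over exons 3 and 4 with 212 coding bases. The marks shared no base in Prdm14. This region has the narrowest width in the list, and with regions of at least 1 kb alone Prdm14 held no H3K9me3, which left Esrrb and Tfcp2l1, 2 of 10, against 24.6% of protein-coding genes.

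**Figure D4:**
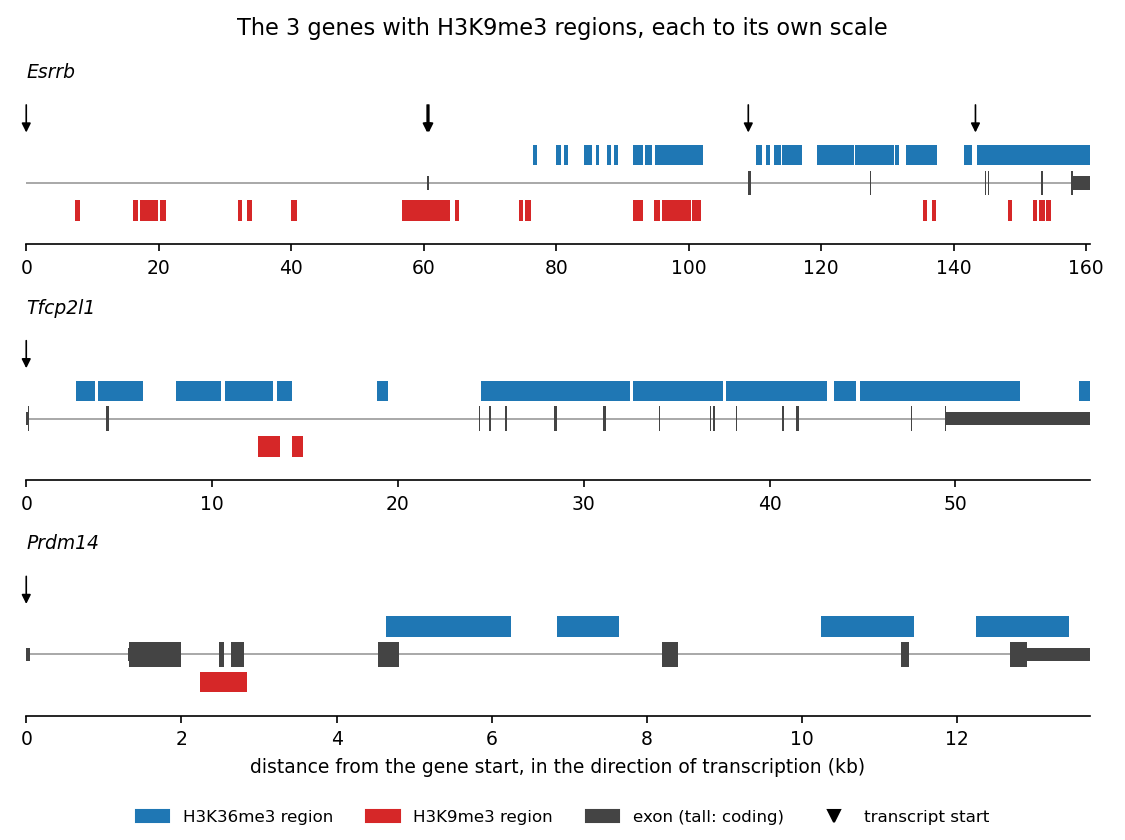
H3K36me3 regions (blue) and H3K9me3 regions (red) in Esrrb, Tfcp2l1 and Prdm14, by distance from the gene start in kb, each gene to its own scale, with exons in grey and annotated transcript starts as arrows. In Esrrb the first 11 red regions precede all blue ones and the widest lies at the first 2 inner transcript starts, while the later 10 overlap blue regions.

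Within 5 kb of the genes, outside their ends, 2 H3K36me3 regions and no H3K9me3 region were listed. Only bins within annotated genes were kept when the lists were made, and another gene lay in 6 of the 20 flanks, so nothing is read from an empty flank without a gene. The region chr17:35649601-35650800, 1880 bp past Pou5f1, lay in Tcf19, a neighbouring gene for a transcription factor. The region chr3:34555801-34557800 past Sox2 lay in Sox2ot. Upstream of Sox2 the whole 5000 bp flank is Sox2ot and neither list held a region there.

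The alignment allowed up to 5 places for a read of 50 bases, which bears on genes with processed copies. Bases of H3K36me3 regions whose surrounding 50 bp occur at 2 to 5 places in the genome made up 18.2% in Pou5f1, 11.2% in Nanog and 5.62% in Tdgf1, and at most 1.29% in the other 7 genes. For Pou5f1, 336 of 349 such bases had their copy at chr1:161223961-161224296, inside the gene Rfwd2. All 318 such bases of Nanog had a copy on chromosome X between 87127716 and 87129211, and all 196 of Tdgf1 on chromosome 16 between 3730607 and 3732632, with no gene at either in GENCODE M1. Bins outside genes of the UCSC annotation, which was not used here, were left out of the lists, so no reading is made of these places. The copy in Rfwd2 was not in the H3K36me3 list. With unique bases alone the covered share was 37.0% for Pou5f1, 41.5% for Nanog and 54.2% for Tdgf1.

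A wider list of 33 other pluripotency genes, none of them among the 10 core genes, was chosen for their known roles. Earlier results of these data were known at that choice, so the list is not an independent check. H3K36me3 lay in 25 of the 33 (75.8%), against 34% of protein-coding genes. H3K9me3 lay in 13 (39.4%), near the background of 40.2%. The median covered share over all 33 was 44.5% for H3K36me3, against 0% over all protein-coding genes. The highest shares were those of Klf2 (97.4%), Il6st (92.9%), the signalling receptor for leukemia inhibitory factor, and Trim28 (89.8%), the corepressor that recruits Setdb1. For H3K9me3 the highest shares were those of Klf2 (86.5%), Gbx2 (60.0%) and Tbx3 (24.2%). Both marks lay on the same bases in 9 of these genes (27.3%), Klf2, Tbx3, Fgf4, Tcl1, Stat3, Il6st, Mycn, Mybl2 and Nacc1. The share was 20% in the core genes, 2 of 10, and 7.14% over all protein-coding genes. Among genes with H3K36me3 it was 9 of 25 in the wider list and 1596 of 7609 over protein-coding genes.

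Of the regulators of differentiated lineages, also listed with earlier results of these data known, most held H3K9me3. Of 20 listed, 19 were matched in the annotation (all but Sox1), and 17 (89.5%) held H3K9me3, against 40.2% of protein-coding genes, while 2 (10.5%) held H3K36me3, against 34%. Sox17 and Foxa2 (endoderm), Cdx2 (trophectoderm), Nkx2-5 (heart) and Olig2 (oligodendrocyte lineage) were covered by H3K9me3 over their whole length. Olig2 with 80.6% and Eomes with 12.6% were the 2 with H3K36me3, and in Olig2 all 2522 bp of it were shared with H3K9me3. The region lists hold positions and no expression values, and expression of these genes was not examined here. No regulator held H3K36me3 without H3K9me3, the state of 7 of the 10 core pluripotency genes and of 22% of protein-coding genes. Only 2 regulators held H3K36me3 at all, and of 7609 protein-coding genes with it 4911 held no H3K9me3.

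**Figure D5:**
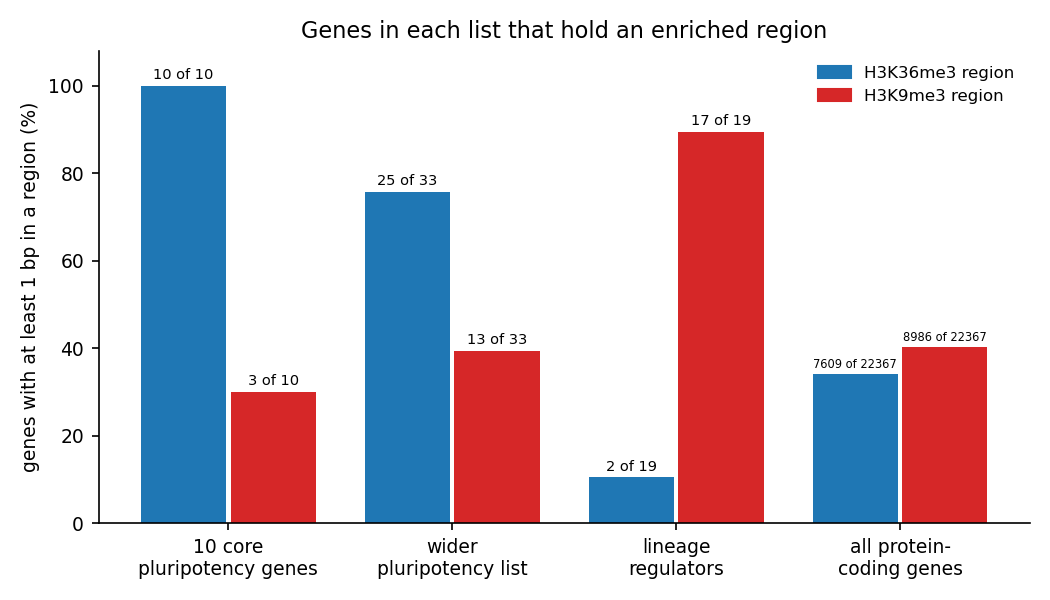
Percentage of genes with at least 1 bp in an H3K36me3 region (blue) or an H3K9me3 region (red) for the 10 core pluripotency genes, the wider pluripotency list, the lineage regulators and all protein-coding genes, with the number of genes on each bar. Blue is at 10 of 10 for the core genes and 2 of 19 for the lineage regulators, and red at 3 of 10 and 17 of 19. The gene lists were chosen with earlier results of these data known.

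By the covered shares of both marks, the protein-coding genes most like Esrrb among 743 with a length within 20% of it were Cdyl2, Ctbp2 and Kazn. Cdyl2 held H3K36me3 over 25.5% and H3K9me3 over 18.3% of its length, at a distance of 9.15 percentage points. Ctbp2 held 38.6% and 9.50%, and Kazn 28.6% and 6.71%, at distances of 9.67 and 13.1 percentage points.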

How the data were processed

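Single reads of 50 bases from 4 libraries were aligned by the authors to mm9 with Bowtie 1.0.0, allowing up to 5 places per read. In SeqMonk they counted reads in 200 bp bins, scaled them to the library total, matched the WT and G34R distributions, kept bins within UCSC genes above the 95th percentile in either genotype, merged bins within 100 bp with bedtools 2.20.1, and filtered the merged regions by size and by extreme read number. The direction of the size filter as worded in the methods does not match the lists, in which no region is narrower than 600 bp. The deposited lists hold no measured values but 3 columns with the chromosome, start and end of each region, 1-based. The last region of chromosome 13 ended at position 120284312, the length of that chromosome in NCBIM37.

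Genes were taken from GENCODE M1 on chromosomes 1 to 19, X and Y, from the outermost transcript ends. Of the 10 genes 9 matched by symbol and 1, Tfcp2l1, by its older symbol Tcfcp2l1. A gene held a mark with at least 1 bp of overlap. Coverage, gene parts and copies of 50 bp on both strands were computed in Python 3.11.15 with NumPy 2.4.6 and Numba 0.67.0, and the functions were checked on simulated data. With 1 library per group and genotypes pooled in each list, no test was made. The members and gene lists were chosen with earlier results of these data known. All members are named. Of the other lists, the 3 genes with the highest share per mark (with ties) and those with both marks on the same bases are named, as are genes that hold a region in a flank and the 3 most like Esrrb.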

Additional observations from a re-analysis of the deposited data

How the results depend on the processing

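The counts of the 10 genes with a mark kept within 1.5 times of their value under the alternatives run, which covered neither the other gene lists nor, apart from the width, the background shares. With regions of at least 1 kb, 9 genes held H3K36me3 (without Lin28a), against 28.4% of protein-coding genes. At that width 2 held H3K9me3 (without Prdm14), against 24.6%. The share of joint length in H3K36me3 (41.6%), H3K9me3 (10.9%) and both (4.51%) became 52.6%, 8.73% and 5.70% with the span of the transcript with the longest coding sequence, 37.8%, 7.38% and 3.07% with regions of at least 1 kb, 46.2%, 13.0% and 6.01% with neighbours within 2 kb joined, and 31.6%, 8.10% and 3.36% with 5 kb added on both sides. With 1 kb added, H3K36me3 covered 39.1%. The exonic share of H3K9me3 bases went from 5.56% to 2.53% when a single transcript per gene was used. Each setting changes the lengths or the exons that are counted, and no other source of these shifts was tested. For single genes, 17 values left the 95% Wilson interval over bins of the first value, 8 of them with 5 kb added. That interval treats neighbouring bins as independent. No paired analysis was possible because each group has 1 library. The lists hold no region under 600 bp and depth is unknown, so whether a gene without a region lacked the mark, held shorter enriched stretches, lost a region to the filter on extreme read numbers or lacked the reads to show them cannot be told apart.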
